A study of Mus musculus with 6 samples.

Results

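The MYC network is the set of transcription factors that meet on the proteins MAX and MLX, and 10 of its genes were followed here in mouse KP cells in which Npm1, the gene of the nucleolar protein nucleophosmin, could be lowered by a hairpin RNA. The genes were taken by name from the count tables: Myc, Mycn and Mycl, which encode the MYC proteins, Max, the repressor genes Mxd1, Mxi1, Mxd3, Mxd4 and Mnt, and Mlx. All 10 of 48526 gene identifiers were present, had counts in every library and passed the filter on low counts, which left 14531 genes tested. The libraries came from stable lines carrying the inducible vector pLKO.1-Tet on with hairpin shNpm1-3, shNpm1-4 or shNpm1-5, named here lines 3, 4 and 5. Each line was sequenced once untreated and once with 100 ng/ml doxycycline, which switches the hairpin on, so that the control and knockdown groups held 3 libraries each and every library carried the vector. The labels do not describe the KP cells further, and do not say whether a line was 1 clone. No library combined doxycycline with a hairpin against another target, so the drug and the knockdown cannot be told apart. Spread between libraries of a group is spread between lines with different hairpins, not between cultures of a line.

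MYC proteins bind DNA as a pair with MAX and favour transcription of genes for growth, ribosome production and metabolism. MXD proteins, MXI1 and MNT pair with the same MAX, bind the same DNA sequence and recruit corepressors, so that they oppose MYC, and in many tissues MXD1 is known as a gene of cells that stop dividing and mature. MLX is a second centre of the network, which pairs with the nutrient-sensing factors MondoA and ChREBP and also with some MXD proteins and MNT. Nucleophosmin is known to bind MYC and to affect the nucleolar location of an FBXW7 form that marks MYC for degradation, which makes the network one of the questions that a loss of Npm1 raises.

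Depth ranged from 24391198 to 27341036 counts in genes per library, and levels are given as CPM, counts relative to library size, with sizes scaled by the TMM method. Npm1 itself went from 2002 to 67.8 CPM in line 3, from 1851 to 245 CPM in line 4 and from 1924 to 400 CPM in line 5, so that 3.39%, 13.2% and 20.8% remained. The keratin genes Krt8 and Krt18, markers of simple epithelium, were at 4060 ± 387 and 3616 ± 289 CPM (SD, n = 3) in untreated cells and 3787 ± 255 and 3276 ± 510 CPM with doxycycline. All 8 epithelial markers had a fold change below 0 and 1 passed, the claudin gene Cldn4 (29.7 ± 4.65 and 12.7 ± 4.96 CPM, log2 fold change -1.23, edgeR adjusted p = 0.0325). Macrophage and lymphocyte markers also differed between the groups. At an edgeR adjusted p under 0.05, 0.963% of all genes tested were higher with doxycycline and 1.32% lower. Of 22 tested macrophage markers 17 rose, with a summed level of 415 to 480 CPM untreated and 474 to 717 CPM with doxycycline, and of 16 tested T and NK lymphocyte markers 14 fell, with sums of 27.2 to 35.1 and 4.92 to 7.05 CPM. Most of the macrophage sum in untreated cells was the mannose receptor gene Mrc1, which did not pass and was at 349 to 414 CPM untreated and 160 to 381 CPM with doxycycline. Of the defining markers, Adgre1 of macrophages was at 0 to 0.0385 CPM untreated and 6.89 to 15.6 CPM with doxycycline, and Cd3e of T cells at 1.27 to 1.53 and 0 to 0.0458 CPM. No marker of either list was at 0 in all libraries. In such bulk samples, fewer cells of a type and less RNA per cell cannot be told apart. The treated library of line 3 stood apart from the other treated libraries, with a chi-square per degree of freedom of 80.9 and 108. Between treated lines 4 and 5 it was 35.8. Among untreated libraries line 3 was also the most distant, at 22.6 and 15.1, against 7.86 between lines 4 and 5. Alignments that were not unique made up 37.8% of all counts, in genes or not, in the treated library of line 3. In the other libraries they made up 31.4% to 34.6%.

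The common binding site of the network, the E-box, is spelled CACGTG and reads the same on both strands. RefSeq promoter windows (GRCm38.p6, 250 bases before to 50 after the start of transcription) were found for 9 of the 10 genes, and those of Max, Mlx, Mnt and Mxd4 held 1 E-box each. They are shown because the network's own binding letters lie there, with 20 bases on either side, from 5′ to 3′ on the gene's strand and the E-box in capitals.
Max: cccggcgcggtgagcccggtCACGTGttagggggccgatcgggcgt
Mlx: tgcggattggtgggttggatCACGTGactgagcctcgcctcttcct
Mnt: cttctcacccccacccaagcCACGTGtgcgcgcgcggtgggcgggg
Mxd4: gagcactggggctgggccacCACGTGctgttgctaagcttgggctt
The stretch of Max lies at chr12:76962226-76962271 on the minus strand and its E-box spans the RefSeq start site, beginning 3 bases before it. The gene span given for Max below comes from another annotation and starts at 76962201 on that strand, outside this stretch. That of Mlx is at chr11:101087230-101087275 on the plus strand, with the E-box 40 bases before the start, that of Mnt at chr11:74830781-74830826 on the plus strand, 123 bases before, and that of Mxd4 at chr5:34187904-34187949 on the minus strand, 219 bases before. Among all windows of the same 300 bases 7.15% held the letters, and among tested genes with a window 11.4%. In the windows of Mycn, Mycl, Mxd1, Mxd3 and Mxi1 these letters did not occur. A match is a run of letters and no measured binding.

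Per length, Myc was the most abundant of the 10 transcripts in untreated cells, at 59.9 ± 7.14 CPM per kb of exons (SD, n = 3). Mlx followed at 29.3 ± 1.55 and Max, the shared partner, at 12.2 ± 0.223 CPM per kb. The repressor genes were lower, with Mxi1 at 7.93 ± 1.002, Mxd1 at 6.90 ± 0.836, Mnt at 5.31 ± 0.869, Mxd4 at 3.65 ± 0.187 and Mxd3 at 2.48 ± 0.683 CPM per kb. Mycl was at 0.576 ± 0.101 and Mycn at 0.145 ± 0.00631 CPM per kb, so that nearly all MYC family RNA was Myc. In this order Mxi1 and Mxd1 overlapped over the 3 untreated libraries, as did Mxd1 and Mnt, and every other neighbouring pair was separate. With doxycycline Myc, at 55.0 ± 15.9, overlapped Mlx at 38.6 ± 7.49 CPM per kb, Max held the third place at 12.5 ± 2.13, and the 5 repressor genes, between 2.89 and 6.68 CPM per kb, each overlapped the next. When the longest transcript replaced the joined exons as the length, Mnt and Mxd4 exchanged places in untreated cells and no other rank changed there. With doxycycline the same change of length moved Mnt from rank 5 to 8, Mxd1 from 6 to 5 and Mxd4 from 8 to 6.

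**Figure D1:**
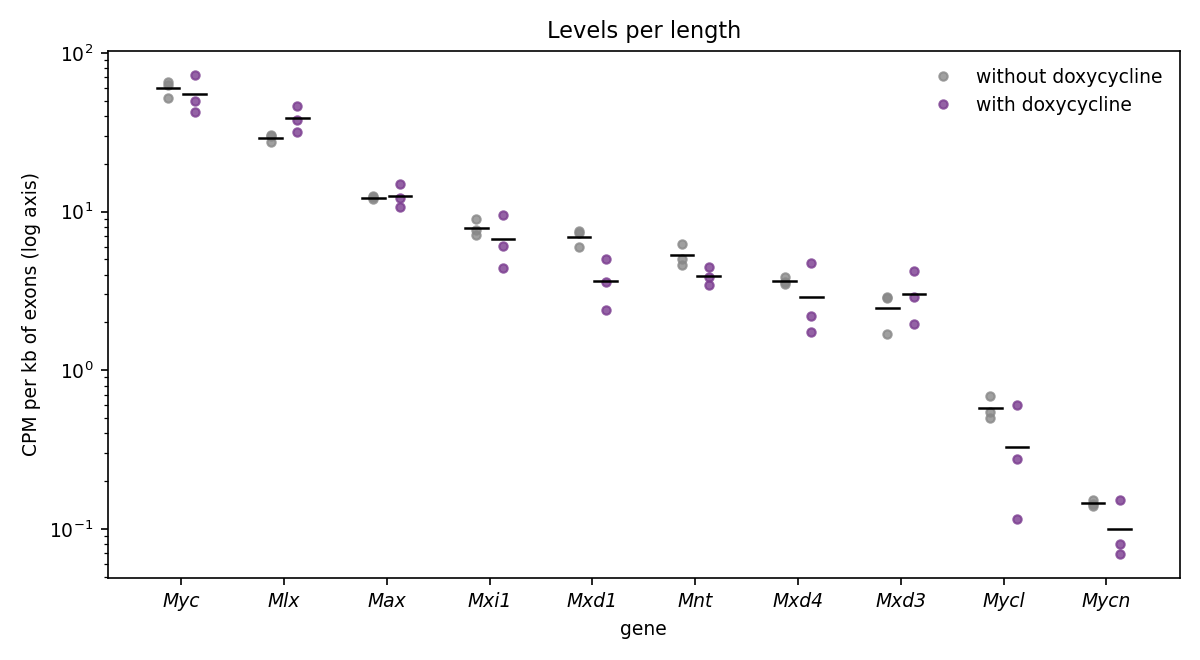
Level of each gene in CPM per kb of exons on a log axis, with grey points for the 3 untreated libraries, purple points for the 3 with doxycycline and black bars for their means. Myc, Mlx and Max lead in both groups, and Mycl and Mycn lie lowest.

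None of the 10 genes passed the test of doxycycline against none (edgeR quasi-likelihood test, p-values adjusted over all genes tested by the Benjamini-Hochberg method, threshold 0.05), where 2.28% of all tested genes did, 0.963% higher and 1.32% lower. With the line as a block, that is with the 2 libraries of a line paired, none passed either, against 1.67% of all genes. At an unadjusted p under 0.05 there were 3, Mxd1, Mlx and Mnt, against 16.3% of all genes. The same 3 were the genes whose groups did not overlap, against 22.6% of all genes. DESeq2 called 1 of the 10, Mxd1, against 4.95% of all genes, and limma-voom 0, against 2.33%. With no filter on low counts edgeR called 1, Mxd1, against 3.9% of all genes. Single libraries weighed heavily: without the treated library of line 3 edgeR called 4, against 10.4% of all genes, and without both libraries of line 3 it called 2, against 4.5%, while no other library or line left out gave a call among the 10. Across the 10 genes the median log2 fold change was -0.29, with 3 above 0 and 7 below, beside a median of 0.00 over all genes tested.

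Myc (ENSMUSG00000022346, mm10 chromosome 15, 61985391 to 61990374, plus strand, 3 exons) encodes the MYC protein that drives growth genes. Its level in untreated cells was 141, 170 and 178 CPM in lines 3, 4 and 5, and with doxycycline 198, 115 and 136 CPM. The treated library of line 3 was thus the highest of the 6 and the treated libraries of lines 4 and 5 the lowest, so that the treated values enclosed the untreated ones. Within lines the level was 40.6% higher in line 3, and in lines 4 and 5 it changed by -32.3% and -23.6%. Over the groups the log2 fold change was -0.12 (SE 0.19, edgeR adjusted p = 0.816), with a 95% interval of -0.55 to 0.31. Its direction rested on single libraries: it was 0.04 without the treated library of line 4, 0.06 without line 4 and 0.00 without line 5, and -0.37 without the treated library of line 3 and -0.46 without line 3 (edgeR adjusted p = 0.107 and 0.0745).

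The other MYC family genes were near the lower limit of the data. Mycl (ENSMUSG00000028654, chromosome 4, 122995652 to 123002485, plus strand), known from neuroendocrine and dendritic cells, had 52, 71 and 57 counts in untreated lines 3, 4 and 5 and 53, 14 and 29 with doxycycline, or 2.002, 2.78 and 2.19 against 2.43, 0.462 and 1.11 CPM. Only the treated libraries of lines 4 and 5 lay below the untreated range. The log2 fold change was -0.83 (SE 0.48, edgeR adjusted p = 0.438), and over the libraries and lines left out in turn it ranged from -1.67 to -0.26. It passed in 1 of those fits, without the treated library of line 3 (-1.57, SE 0.39, edgeR adjusted p = 0.0257), and not without both libraries of line 3 (-1.67, edgeR adjusted p = 0.0745). Without the treated library of line 4 it was -0.41 (edgeR adjusted p = 0.619), and without line 4 it was -0.26 (edgeR adjusted p = 0.915). Mycn (ENSMUSG00000037169, chromosome 12, 12936093 to 12941914, minus strand), the family member of embryonic and neural tissue, had 13, 12 and 12 counts untreated and 5, 8 and 13 with doxycycline, where 3 counts correspond to 0.0991 to 0.137 CPM. The groups overlapped, and at this depth a difference was not detectable (log2 fold change -0.52, 95% interval -1.46 to 0.42).

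Max (ENSMUSG00000059436, chromosome 12, 76937269 to 76962201, minus strand) gives the shared partner of the MYC, MXD and MNT proteins. It had the smallest fitted change of the 10 genes, at 43.2, 44.1 and 44.8 CPM untreated and 53.3, 38.2 and 43.7 CPM with doxycycline in lines 3, 4 and 5. The groups overlapped, with the highest and the lowest value both among treated libraries. The log2 fold change was 0.03 (SE 0.14, edgeR adjusted p = 0.947), and its 95% interval of -0.29 to 0.35 bounds the change that these libraries allow. Max counted per kb was 0.133 to 0.154 of the summed MYC, MXD and MNT transcripts in untreated cells and 0.149 to 0.180 with doxycycline, ranges that overlap. These shares are per kb of joined exons and depend on that length. By the longest transcript Max was at 22.7 and Myc at 69.6 CPM per kb untreated, against 12.2 and 59.9.

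**Figure D2:**
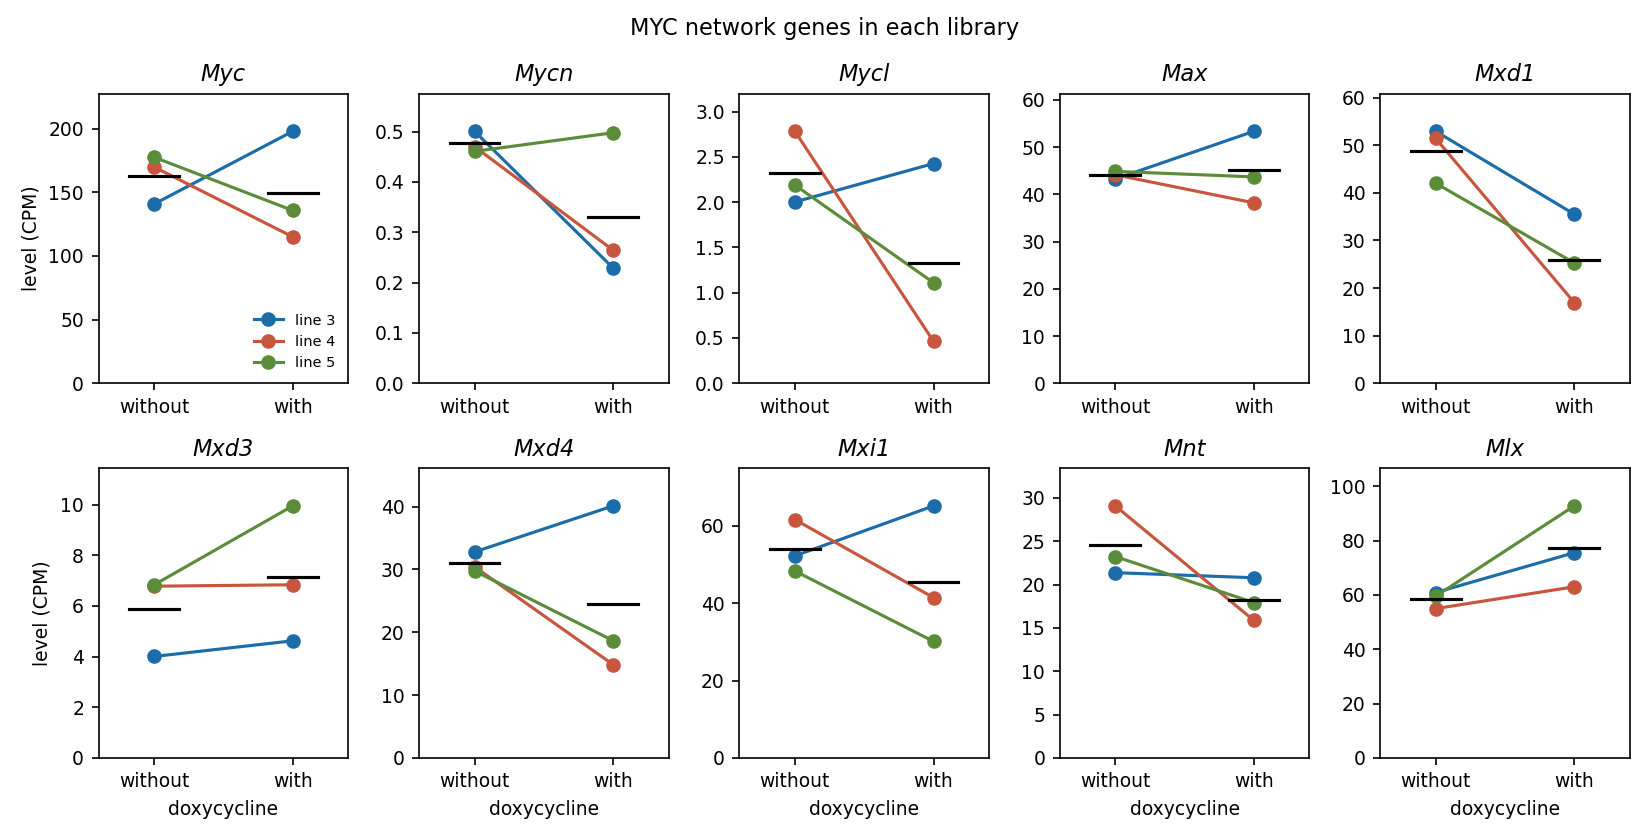
Level in CPM without and with doxycycline for each of the 10 genes, with 1 coloured line joining the 2 libraries of a stable line and black bars for group means; each panel has its own axis from 0. Mxd1 and Mnt are lower and Mlx and Mxd3 higher with doxycycline in every line, while Myc, Mycl, Max, Mxd4 and Mxi1 are higher in line 3 and lower in lines 4 and 5.

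Among the repressors, Mxd1 (ENSMUSG00000001156, chromosome 6, 86647042 to 86669161, minus strand, 6 exons) showed the largest difference relative to its error. It was at 52.9, 51.5 and 42.04 CPM in untreated lines 3, 4 and 5 and at 35.5, 16.9 and 25.3 CPM with doxycycline. All treated libraries lay below all untreated ones, and within lines the level changed by -32.9% in line 3, -67.1% in line 4 and -39.9% in line 5. The means were 48.8 ± 5.91 and 25.9 ± 9.31 CPM (SD, n = 3 each), a log2 fold change of -0.92 (SE 0.23, 95% interval -1.43 to -0.40). The edgeR adjusted p was 0.0804, and 3.23% of all genes tested had a smaller p. The call depended on the method: DESeq2 gave an adjusted p of 0.00897, edgeR with no filter on low counts 3.37e-06, edgeR without the treated library of line 3 0.00225 and edgeR without both libraries of line 3 0.0313. It did not pass in the other 12 of 16 alternatives: pairing the libraries by line gave an edgeR adjusted p of 0.0616, length and GC offsets 0.168, and the other libraries and lines left out 0.0883 to 0.424, the highest without line 4 (log2 fold change -0.65). The small p with no filter came from a fit in which better-covered genes had much the same error. There the SE was 0.17 for Mxd1 and Mxd4 and 0.16 for Myc and Max. In the main fit these were 0.23, 0.30, 0.19 and 0.14. Mxd1 is also a gene of myeloid cells, and it was lower where the macrophage markers above were higher; their part in its level was not tested.

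Mnt, the most widely expressed of the MAX-binding repressors (ENSMUSG00000000282, chromosome 11, 74830920 to 74845725, plus strand), was at 21.4, 29.1 and 23.2 CPM untreated and 20.8, 15.9 and 17.9 CPM with doxycycline. The groups did not overlap, although line 3 changed by only -2.75% against -45.5% in line 4 and -22.9% in line 5. The log2 fold change was -0.43 (SE 0.17, 95% interval -0.81 to -0.06, edgeR adjusted p = 0.233). After correction of each library for GC content and transcript length it was -0.15 (SE 0.13, edgeR adjusted p = 0.622). With that correction the log2 ratios with over without doxycycline were 0.06, -0.47 and -0.06 in lines 3, 4 and 5. Without line 4, and without that correction, the log2 fold change was -0.21 (edgeR adjusted p = 0.821).

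Mxi1 (ENSMUSG00000025025, chromosome 19, 53310518 to 53375810, plus strand) and Mxd4 (ENSMUSG00000037235, chromosome 5, 34173883 to 34187720, minus strand), both MAX-binding repressors, split by line. Mxi1 was at 52.3, 61.6 and 48.3 CPM in untreated lines 3, 4 and 5 and at 65.2, 41.5 and 30.1 CPM with doxycycline. Mxd4 was at 32.8, 30.4 and 29.8 CPM untreated and at 40.1, 14.8 and 18.6 CPM with doxycycline. In both genes the treated library of line 3 was the highest of the 6 and the treated libraries of lines 4 and 5 were the lowest. Over all libraries the log2 fold changes were -0.25 (SE 0.24, edgeR adjusted p = 0.670) for Mxi1 and -0.34 (SE 0.30, edgeR adjusted p = 0.636) for Mxd4. Without the treated library of line 3 they were -0.59 (SE 0.16, edgeR adjusted p = 0.0393) and -0.88 (SE 0.15, edgeR adjusted p = 0.00391), and without both libraries of line 3 they were -0.61 (edgeR adjusted p = 0.101) and -0.84 (edgeR adjusted p = 0.0328). Leaving out a treated library of another line moved both toward 0. Without that of line 4 Mxi1 was at -0.18 and Mxd4 at -0.08 (edgeR adjusted p = 0.777 and 0.913), and without that of line 5 at -0.02 and -0.18 (edgeR adjusted p = 0.976 and 0.865). For Mxd4 6.06% of exonic bases, and for Mxi1 2.84%, are shared with a gene on the opposite strand (Gm42846 and Gm10197), and the strand setting of the counts is not given in the sources used here.

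Mxd3 (ENSMUSG00000021485, chromosome 13, 55325168 to 55329823, minus strand), the member of the family known from S phase of dividing cells, was the only repressor gene with a fold change above 0. It was at 4.00, 6.78 and 6.83 CPM untreated and at 4.62, 6.84 and 9.95 CPM with doxycycline in lines 3, 4 and 5. It was higher in all 3 lines, by 15.5%, 0.854% and 45.6%, but the groups overlapped because line 3 was low in both conditions. Its log2 fold change was 0.28 (SE 0.31, edgeR adjusted p = 0.707), and -0.03 without the treated library of line 5. Of its exonic bases 4.43% are shared with Prelid1 on the opposite strand.

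Mlx (ENSMUSG00000017801, chromosome 11, 101087277 to 101092207, plus strand, 8 exons), the partner of MondoA and ChREBP, was the only gene of the 10 above its untreated range in all treated libraries. It was at 60.9, 54.98 and 59.6 CPM untreated and at 75.6, 63.02 and 92.8 CPM with doxycycline, that is 24.1%, 14.6% and 55.9% higher in lines 3, 4 and 5. The log2 fold change was 0.40 (SE 0.15, 95% interval 0.06 to 0.74), which did not pass (edgeR adjusted p = 0.226). It was 0.24 (edgeR adjusted p = 0.472) without the treated library of line 5. Of its exonic bases 19.3% are shared with Psmc3ip on the opposite strand, so that some reads may belong to either gene.

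**Figure D3:**
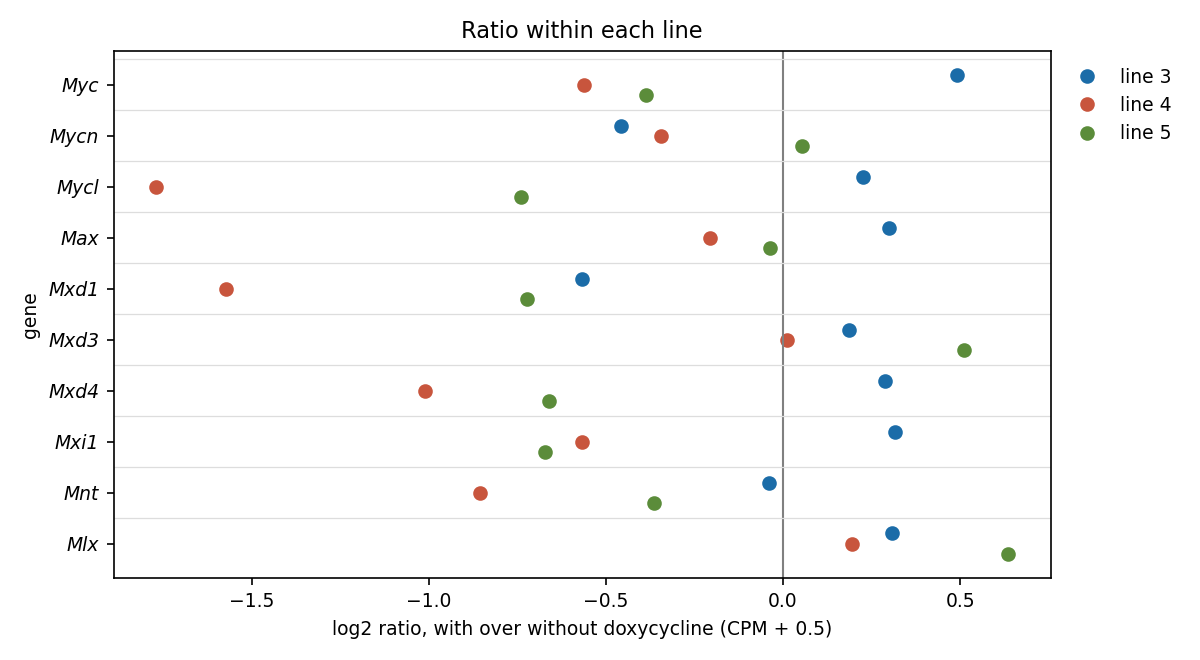
Log2 ratio of CPM + 0.5 with over without doxycycline for each gene, with 1 point per line. Line 3 lies right of 0 and lines 4 and 5 left of it for Myc, Mycl, Max, Mxd4 and Mxi1, while the 3 lines share a side of 0 for Mxd1, Mxd3, Mnt and Mlx.

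Set side by side, line 3 had 7 of the 10 genes higher with doxycycline, line 4 had 2 and line 5 had 3. The same direction in the 3 lines was seen in 4 of the 10, against 38.6% of all genes tested. Of these 4, Mnt lost it in line 3 with length and GC offsets. Another 5 were higher in line 3 and lower in lines 4 and 5, against 16.4% of all genes tested. Counting either direction, line 3 ran against both other lines in 31.4% of all genes tested. The median log2 ratio over the 10 genes was 0.26 in line 3, -0.56 in line 4 and -0.38 in line 5, where the median over all genes tested was 0.00, -0.01 and 0.00. Line 3 was also the line with the least Npm1 remaining. With 1 library per line and condition, a difference of response between lines could not be tested. Whether the level of a gene differed between lines, averaged over the conditions, was tested with the line terms of a model with doxycycline and line. Such a test does not ask for a difference in each condition. None of the 10 passed (edgeR quasi-likelihood test, adjusted p under 0.05), as none of all genes did (0%). At an unadjusted edgeR p under 0.05 there were 2, Mxd3 and Mxd4, against 4.59% of all genes. For Mxd4 the untreated lines 3, 4 and 5 were close (32.8, 30.4 and 29.8 CPM) and the treated ones apart (40.1, 14.8 and 18.6 CPM). With no filter on low counts Mxd4 passed (edgeR adjusted p = 0.0299), as 0.889% of all genes did. When the untreated library of line 3 was left out, Mxd4 and Mxi1 passed (edgeR adjusted p = 0.0319 and 0.0364), as 2.22% of all genes did, but in that fit the level of line 3 rests on its treated library alone and no longer on both conditions.

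**Figure D4:**
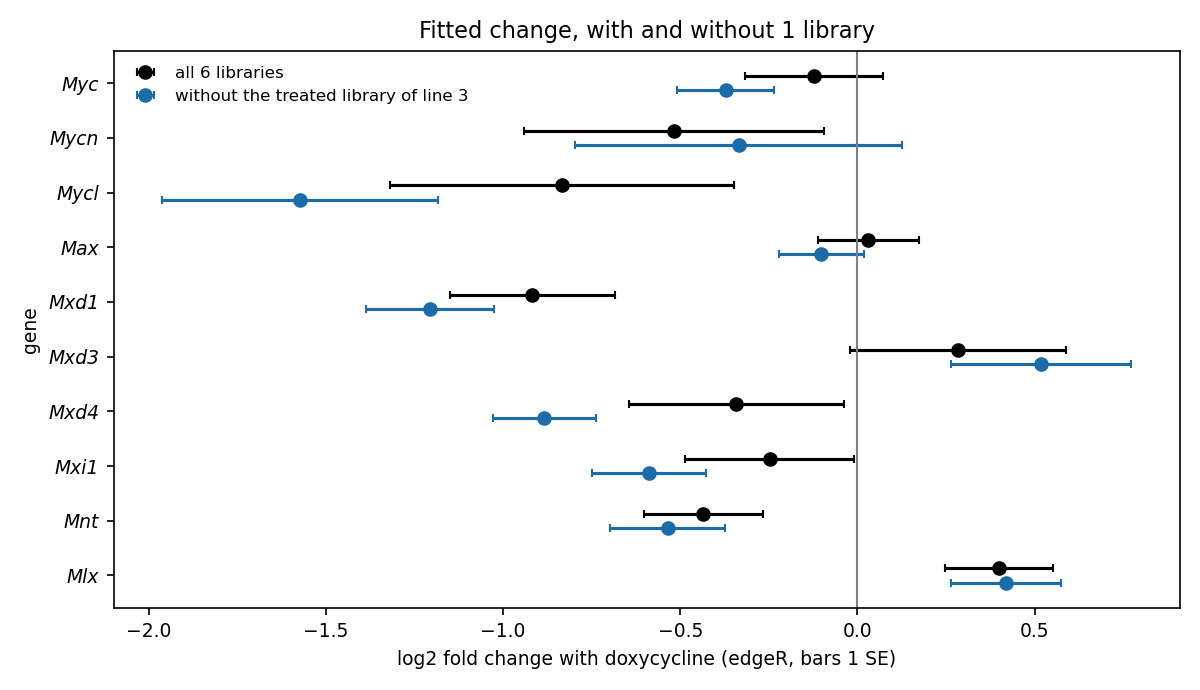
Fitted log2 fold change with doxycycline (edgeR, bars 1 SE) over all 6 libraries in black and without the treated library of line 3 in blue. Leaving out that library moves Mycl from -0.83 to -1.57, Mxd4 from -0.34 to -0.88 and Mxi1 from -0.25 to -0.59, and moves Mlx little.

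The balance of MYC genes against their antagonists was described by sums per kb of joined exons, which depend on that choice of length. The MYC genes summed to 60.6 ± 7.18 CPM per kb untreated and 55.5 ± 16.1 with doxycycline, and the MXD and MNT genes to 26.3 ± 2.44 and 20.2 ± 4.90 CPM per kb (SD, n = 3 each). The ratio of antagonist to MYC transcripts was 0.482, 0.458 and 0.370 in untreated lines 3, 4 and 5 and 0.350, 0.389 and 0.362 with doxycycline. It was lower with doxycycline in lines 3 and 4 and nearly equal in line 5, and the groups overlapped. In line 3 the MYC sum was higher and the antagonist sum nearly level, whereas in line 4 both were lower.

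Genes around the network were read from lists written from general knowledge, but chosen with earlier results of these data known. The other partners of MAX and MLX were 3: Mga and Mlxip (MondoA) were at 55.2 ± 6.95 and 13.1 ± 1.03 CPM untreated and 52.3 ± 10.5 and 11.6 ± 2.95 CPM with doxycycline (SD, n = 3 each), and Mlxipl (ChREBP) had 4 to 19 counts per library. None of the 3 passed. Of 18 cofactors and corepressors none passed, with a median log2 fold change of -0.05. The helicase gene Ep400, whose product works with MYC in histone acetylation, was at 36.7 ± 2.04 and 27.8 ± 2.51 CPM (edgeR adjusted p = 0.157). Hdac2, a histone deacetylase of the corepressor that MXD proteins recruit, was at 89.7 ± 3.43 and 113 ± 3.41 CPM (edgeR adjusted p = 0.166).

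Of 18 genes of MYC protein turnover none passed either, with a median of -0.02. Skp2, a ubiquitin ligase subunit that acts on MYC, was at 36.5, 37.9 and 39.7 CPM untreated and at 41.9, 58.3 and 99.3 CPM with doxycycline, so that the groups were separate and the treated libraries spread widely. Its log2 fold change was 0.81 (SE 0.26, edgeR adjusted p = 0.152), with 0.40 (edgeR adjusted p = 0.300) without the treated library of line 5 and 1.06 (edgeR adjusted p = 0.00501) without that of line 3. These are RNA levels, and the amount of MYC protein was not measured.

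Genes known to be induced by MYC lay mostly above 0 without passing one by one. Of the 54 tested, 46 (85.2%) had a log2 fold change above 0, against 50.4% of all genes tested, with a median of 0.13 against 0.00. None passed (edgeR adjusted p under 0.05), and at an unadjusted p under 0.05 there were 8 higher and 1 lower, together a share near the 16.3% of all genes. Of all 14531 genes tested, 1210 were higher and 1157 lower at that unadjusted p. DESeq2 called 3 higher, where it called 2.26% of all genes higher, and limma-voom 0. Nme1, a nucleoside diphosphate kinase, was at 43.7, 44.1 and 46.0 CPM untreated and 58.6, 67.2 and 82.8 CPM with doxycycline. Its log2 fold change of 0.64 (SE 0.14) just missed the threshold (edgeR adjusted p = 0.0508) and passed in 6 of 16 alternatives. The ribosome assembly factor Mrto4 was at 96.6 ± 8.02 and 138 ± 12.4 CPM (edgeR adjusted p = 0.0720). Both lay higher in all 3 lines. By line, 46, 30 and 41 of the 54 were higher in lines 3, 4 and 5, with medians of 0.22, 0.05 and 0.15, while Myc itself had ratios of 0.49, -0.56 and -0.39. Their promoter windows held the E-box letters in 14 of 46 genes (30.4%), against 11.4% of all tested genes with a window. Whether these letters bear on the fold changes was not tested.

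Of 10 tested genes known to be repressed by MYC none passed, 8 lay below 0, and the median was -0.19. The cell cycle inhibitor gene Cdkn1a was at 46.8, 54.5 and 39.9 CPM untreated and at 41.7, 14.2 and 16.5 CPM with doxycycline, and the groups overlapped at line 3. Its log2 fold change was -0.97 (SE 0.34, edgeR adjusted p = 0.195), with -1.61 (edgeR adjusted p = 0.000260) without the treated library of line 3 and -0.58 (edgeR adjusted p = 0.723) without line 4. Ndrg2 was at 106 ± 7.16 and 78.1 ± 19.8 CPM (edgeR adjusted p = 0.255). Without the treated library of line 3, 6 of 11 tested genes of this list fell, where 5.79% of all genes did. Without both libraries of line 3, 2 of 10 fell, where 399 of 14748 genes did. With any other library or line left out, none of the list passed. Of 8 tested genes induced by MondoA or ChREBP together with MLX, 1 fell, where 1.32% of all genes did, and 7 did not pass. Klf10, a zinc finger repressor also induced by TGF-beta, fell from 79.7, 73.7 and 63.3 CPM in untreated lines 3, 4 and 5 to 42.8, 37.4 and 53.1 CPM, with groups that did not overlap. The log2 fold change was -0.70 (SE 0.16), just past the threshold (edgeR adjusted p = 0.0488). The call held in 7 of 16 alternatives, over which the adjusted p ranged from 0.000601 to 0.420. It was lost with pairing by line (edgeR adjusted p = 0.0873), with RLE scaling (0.0515) and without macrophage and lymphocyte markers (0.0537). Leaving out any 1 untreated library also lost it (edgeR adjusted p = 0.218, 0.239 and 0.0975 for lines 3, 4 and 5). So did leaving out the treated library of line 4 (edgeR adjusted p = 0.0897), both libraries of line 3 (0.0978) or both of line 4 (0.420). Txnip, the best known MondoA target, was at 458 ± 80.3 CPM untreated and 465 ± 184 CPM with doxycycline (SD, n = 3 each); it was chosen for mention after its values were seen.

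**Figure D5:**
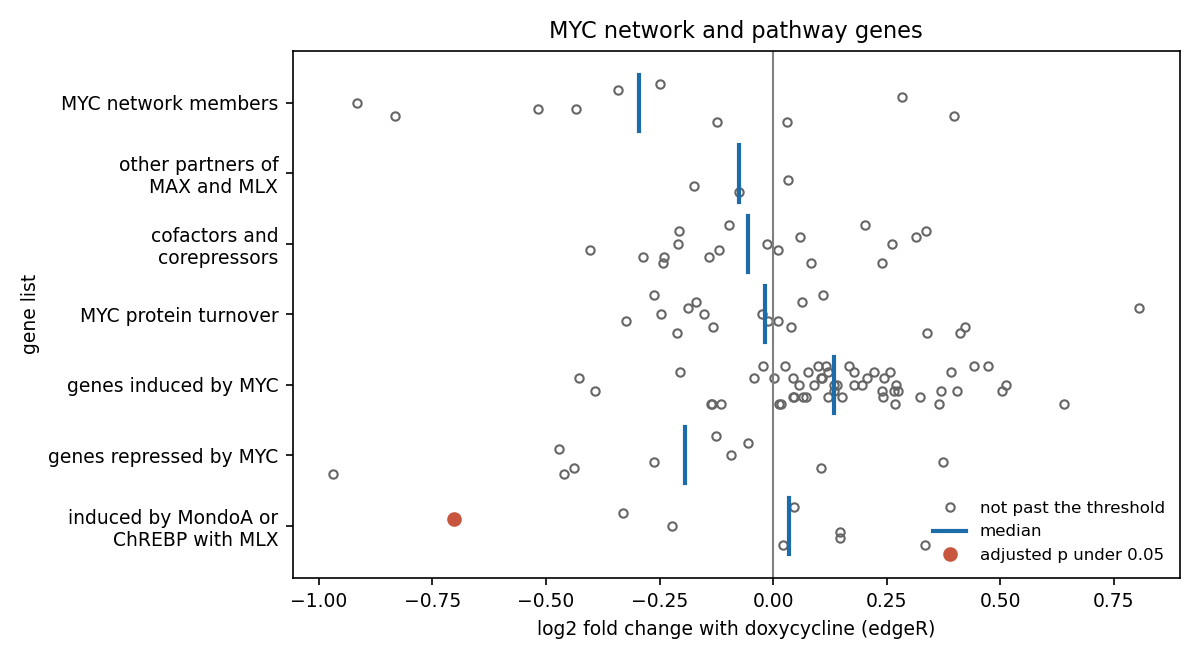
Log2 fold change with doxycycline (edgeR) of each tested gene by list, open circles for genes not past the threshold, a filled circle for the 1 gene with an adjusted p under 0.05 and blue bars for list medians. The genes induced by MYC centre at 0.13, right of 0, and the 10 network genes at -0.29, left of it.

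The genes whose pattern over the 6 libraries was most like that of Myc were found by Pearson correlation of log2(CPM + 0.5), among 9813 tested genes with a mean of at least 5 CPM. They were Capns1, a calpain subunit (r = 0.996), the membrane transporter gene Mfsd5 (r = 0.994), Eif6, a factor of the large ribosomal subunit (r = 0.993), Mpnd (r = 0.993) and Eef1g, an elongation factor subunit (r = 0.991). The points share 6 libraries and their scaling, and 275 of the 9813 genes had an r over 0.9, so the likeness is a description of these libraries. Capns1, for instance, was at 407, 476 and 473 CPM untreated and 518, 349 and 393 CPM with doxycycline in lines 3, 4 and 5, the same order of libraries at both ends as for Myc, with treated line 3 highest and treated line 4 lowest.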

How the data were processed

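The authors deposited 1 file of unnormalized read counts per Ensembl gene for each library. STAR, HTSeq and DESeq2, among others, R 3.3.0 and build mm10 are named per the submitters' processing notes, and no strand setting or annotation release is given in the sources used here. The 5 rows that name no gene (43.7% to 47.7% of all counts) were left out. Symbols were matched for 48144 of 48526 identifiers in GENCODE M21 (GRCm38). The test was the quasi-likelihood F test of edgeR 4.0.16 in R 4.3.3, after filterByExpr and TMM scaling, with Benjamini-Hochberg adjustment. The SE was taken as |log2 fold change| over the root of F, and 95% intervals from it and the t distribution on the fit's degrees of freedom. Alternatives were RLE scaling, no filter, the line as a block, each library and line left out, DESeq2 1.42.0 and limma-voom (limma 3.58.1). Others were length and GC offsets, and a fit without macrophage and lymphocyte markers. The procedures were tested on simulated counts, where edgeR recovered 11.9%, 59.7% and 93.9% of genes changed 1.5-fold, 2-fold and 4-fold. A gene that did not pass may thus still have changed by the smaller of these amounts. The pairing comes from the stable lines. As a check, deviations from group means correlated at 0.0434, 0.0962 and 0.0274 within lines 3, 4 and 5. Between libraries of different lines the correlations ran from -0.112 to 0.0713, which overlaps the values within lines, so this check cannot decide the pairing. Replicates were not duplicates (chi-square per degree of freedom 7.86 to 108). The members and lists were chosen with earlier results of these data known. From each pathway list the genes past the threshold, or else the 2 of smallest p, were named, with the 10 members, Npm1 and the 5 genes most like Myc; the marker genes named were chosen for mention as examples. The result for 1 gene that this rule named is not reported here.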

Additional observations from a re-analysis of the deposited data

Results flagged for a closer look

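In 5 of the 10 genes the response of line 3 ran against that of both other lines, and with 1 library per line and condition the difference was not tested. The log2 ratios of CPM + 0.5 with over without doxycycline were 0.49 in line 3, -0.56 in line 4 and -0.39 in line 5 for Myc. They were 0.23, -1.77 and -0.74 for Mycl, and 0.30, -0.21 and -0.04 for Max. Mxd4 had 0.29, -1.01 and -0.66, and Mxi1 had 0.32, -0.57 and -0.67. Under RLE scaling and with length and GC offsets each of these 5 genes kept its direction in every line, with 0.41, -0.46 and -0.25 for Myc under the offsets. Over all genes tested, line 3 ran against both other lines in 31.4%, counting either direction, and 16.4% were higher in line 3 and lower in lines 4 and 5. The treated library of line 3 was also the one with the largest share of counts from alignments that were not unique (37.8%). The part of this in the ratios was not tested.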

How the results depend on the processing

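Over 16 alternatives for each of the 10 genes, 153 of 160 fold changes kept their direction and 8 passed the threshold, in Mxd1, Mxd4, Mxi1 and Mycl; the 7 opposite values, none past the threshold, were in Myc, Max and Mxd3. The number of network genes called, 0 with all libraries, was 1 with no filter on low counts, 1 with DESeq2, and 0 to 4 when a library or line was left out (4 without the treated library of line 3, 2 without line 3). Of all genes, 332 (2.28%) were called, 1052 (3.9%) with no filter and 720 (4.95%) with DESeq2. The number was 303 of 14491 with length and GC offsets and 282 of 14492 without macrophage and lymphocyte markers. It was 62 to 1551 when a library or line was left out. Of the genes around the network, 1 was called; 6 were with no filter, 5 with DESeq2, 4 with length and GC offsets, 0 with the replicate block, 0 without macrophage and lymphocyte markers, and 0 to 16 when a library or line was left out. With the replicate block 243 of all genes and 0 of the network genes were called, and of the genes named only the call of Klf10 changed. Network genes that differed between lines were 0, 1 with no filter, and 0 to 2 when a library was left out. The level of Myc in untreated cells, 59.9 CPM per kb of joined exons, was 69.6 CPM per kb of the longest transcript, by the shorter length alone. Npm1 kept its call in 14 of 16 alternatives, losing it without the untreated library of line 3 (adjusted p = 0.0937) and without line 4 (0.177). Of the other genes named, Nme1 passed in 6, Mrto4 in 4, Skp2 and Cdkn1a in 3 each and Ndrg2 in 1 of the 16. The cause of the other changes was not tested. In fits that left a line out, 2 libraries per group remained.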
